A study of Arabidopsis thaliana with 8 samples.

Results

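Deubiquitinases remove ubiquitin from proteins, and 6 genes that encode them were followed here among the genomic regions bound by ENAP1 in Arabidopsis thaliana. They are UBP6, UBP7, UBP12, UBP13 and UBP26 of the ubiquitin-specific protease (UBP) family and OTLD1, which encodes an otubain-like deubiquitinase. They are 6 of 27444 nuclear protein-coding genes in the RefSeq gene table, and each was found there under the expected symbol. A gene was counted as listed when the summit of a deposited region lay between 1000 bp outside one gene end and 1000 bp outside the other. The set was chosen by the deposited fold enrichment of these same lists, since UBP6 is among the highest genes in air and OTLD1 among the highest of those listed in air only. The enrichments below therefore describe the genes, and no test was made on them.

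ENAP1 is a nuclear protein that associates with EIN2, the central regulator of the ethylene response, and with histones. All samples were whole seedlings of ecotype Col-0 with the ein3 eil1 double mutation, which removes EIN3 and EIL1, the main transcription factors of the ethylene pathway. Seedlings were grown in the dark at 24 °C for 3 days and then exposed for 4 h to hydrocarbon-free air, either alone or with 10 ppm ethylene. Chromatin immunoprecipitation with an antibody against green fluorescent protein (ChIP) gave 2 air and 2 ethylene samples, each group with 2 input samples. The labels do not describe the tagged ENAP1 construct or the promoter that drives it, and they leave unsaid whether samples of 1 group were grown separately.

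The authors' processing gave 1 list of bound regions per treatment, with 4526 regions in air and 3293 in ethylene. Each region carries the authors' fold enrichment, which is the ChIP pile-up at the summit over the local background, with 1 added to both. No list holds a value per sample, so no replicate error can be given and no gene was tested between treatments. The median enrichment was 2.84 in the ethylene list and 5.06 in the air list, so each value is read within its own list. A gene without a region is not shown to be unbound. The lists hold no expression values, so the labelled tissue could not be checked against marker genes.

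As background, ubiquitin is joined to proteins in chains that send them to the proteasome, or singly as a signal, and deubiquitinases reverse both. In chromatin, a single ubiquitin on histone H2B is placed by the ligases HUB1 and HUB2 and accompanies transcription, and a single ubiquitin on H2A is linked to Polycomb repression. The Arabidopsis UBP family is its largest family of deubiquitinases and includes enzymes of the proteasome, of hormone and clock signalling, and of histones.

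Of the 6 genes, UBP6 and UBP13 were listed in both treatments, OTLD1 was listed in air only, and UBP7, UBP12 and UBP26 were in neither list. That is 3 of 6 genes in air, where 21.8% of all protein-coding genes were listed by the same rule, and 2 of 6 in ethylene, against 16.5%. Since listing itself entered the choice of the 6, nothing is read from these counts. Long genes have long windows. Of the 2827 genes at least as long as UBP7, the shortest of the 6 at 4196 bp, 30% were listed in air and 22.1% in ethylene.

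**Figure D1:**
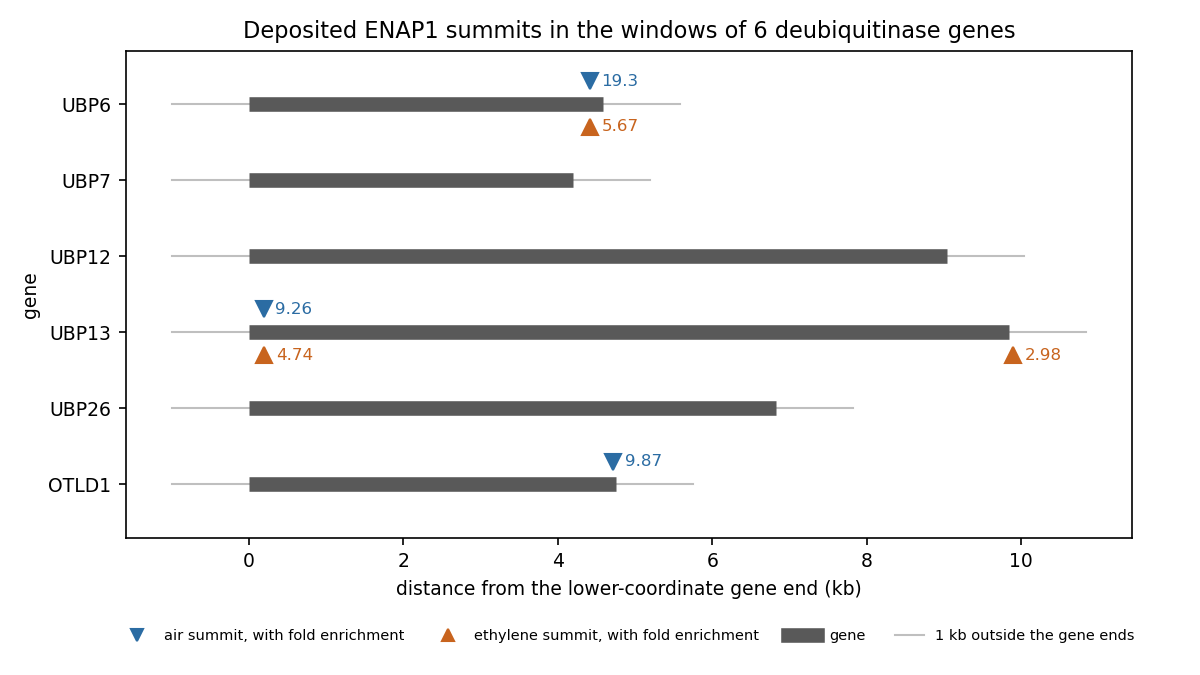
Positions of ENAP1 summits in the windows of the 6 genes, with distance from the lower-coordinate gene end in kb on the horizontal axis and 1 gene per row. Thick bars are genes, thin lines the 1000 bp outside them, and triangles the summits with the authors' fold enrichment; the summits of UBP6, UBP13 and OTLD1 sit at gene ends, and UBP7, UBP12 and UBP26 have none.

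UBP6 (AT1G51710) and UBP7 (AT3G21280) encode closely related proteases with a ubiquitin-like domain, related to the yeast and human proteasome-associated deubiquitinases Ubp6 and USP14. UBP6 carried the strongest region of the 6 genes in both lists. In air the region spanned 19179904 to 19180188 on chromosome 1 (TAIR10) and had a fold enrichment of 19.3. Only 5 air regions had a higher enrichment, and its −log10 p of 116 ranked 14 in the list. In ethylene the region spanned 19179831 to 19180197 and had an enrichment of 5.67, which ranked 89 of 3293. By −log10 p, at 65.8, it ranked 19 of the ethylene list.

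The pile-up and the background behind these ratios were solved from the deposited enrichment and p. At UBP6 the air pile-up was 120 over a local background of 5.26, and the ethylene pile-up was 158 over 27. The median local background of the whole list was 8.13 in air and 28 in ethylene. The UBP6 background was thus below the median of its list in both treatments, and the pile-up was above the list medians of 48 and 89.1. The higher pile-up of the ethylene region stood over a higher background, and the scales of the lists cannot be told apart from the treatments.

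Both UBP6 summits lay inside the gene near its higher-coordinate end, at 172 bp in air and 169 bp in ethylene. They were 3 bp apart, where the median gap over 2670 overlapping pairs of air and ethylene regions was 16 bp (interquartile range 7 to 30). The air region lay wholly within the ethylene one, which was 367 bp wide against an interquartile range of 195 to 297 bp for that list. The next gene, AT1G51720, has its end 721 bp from the air summit and 718 bp from the ethylene summit, so the same regions also count for it.

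UBP7, the close relative of UBP6, had no summit in its window of 6.20 kb in either list. The nearest air summit lay 32.7 kb away, nearest to AT3G21215. The nearest ethylene summit lay 7.13 kb away, nearest to AT3G21295, with an enrichment of 2.44 at rank 2416. UBP7 overlaps the annotated gene AT3G21290 by 20 bp.

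UBP12 (AT5G06600) and UBP13 (AT3G11910) encode closely related proteases known to act redundantly in flowering time, the circadian clock and jasmonate signalling, where they stabilise the transcription factor MYC2. Only UBP13 was listed. Its air region spanned 3760794 to 3761035 on chromosome 3 and had an enrichment of 9.26 at rank 385. The ethylene region at the same place spanned 3760812 to 3761023 and had an enrichment of 4.74 at rank 219. By −log10 p the air region ranked 740 and the ethylene region 308. These summits were 191 and 199 bp inside the lower-coordinate gene end and 8 bp apart, so they mark the same place in both lists.

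The air pile-up at UBP13 was 57 over a background of 5.27, and the ethylene pile-up was 102 over 20.8. Both backgrounds were below the median of their list, as at UBP6. The gene ANT1 (AT3G11900), which encodes an amino acid transporter, overlaps this end of UBP13 by 28 bp. Its end lay 164 bp from the air summit and 172 bp from the ethylene summit, both of them outside ANT1 and inside UBP13.

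UBP13 was the only one of the 6 genes with a pair of regions in 1 list. Its other ethylene region spanned 3770515 to 3770711, at the opposite end of the 9840 bp gene, with the summit 57 bp outside the gene. It had an enrichment of 2.98 at rank 1410, close to the list median of 2.84, and a −log10 p of 11, where the lowest value in that list is 8.43. No air region overlapped it, and its pile-up of 48.4 to 50.0 stood over a background of 15.6 to 16.1. Of all genes listed in ethylene, 7.48% had 2 or more regions, against 11.2% in air. At −log10 p of at least 20 this region is lost and the region at the other end of UBP13 is kept in both lists.

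UBP12, at 9033 bp nearly as long as UBP13, had no summit in either list. The nearest summits lay 11.8 kb away in air, at AT5G06570, and 12.9 kb away in ethylene, at AT5G06560. Their enrichments were 4.60 and 3.04.

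**Figure D2:**
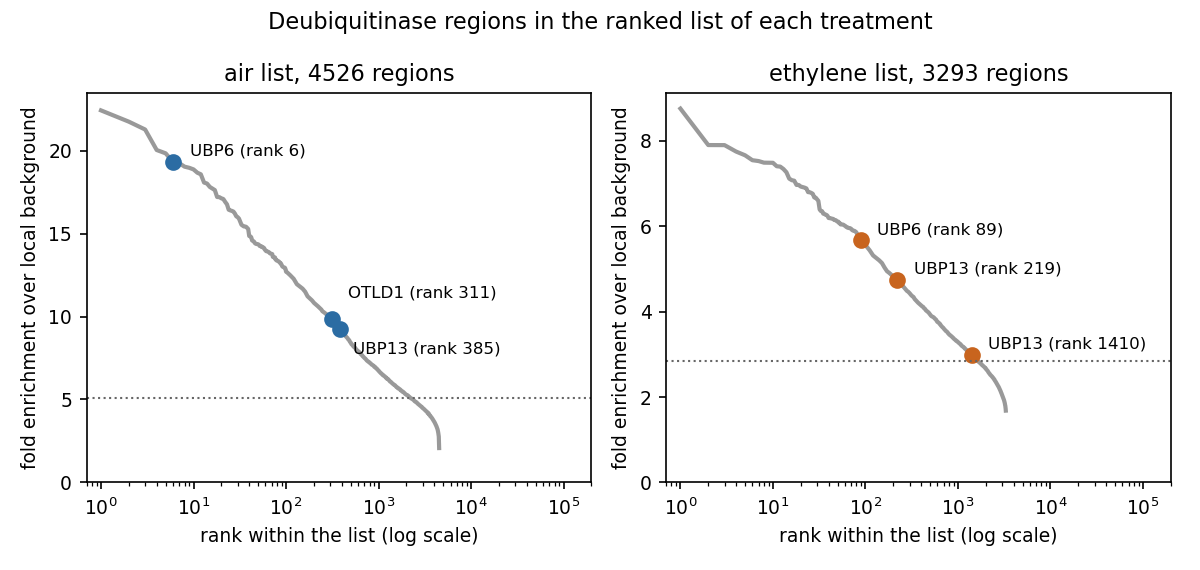
Fold enrichment over local background against rank within the list (log scale) in each list, as a grey line through the ranked regions, with the regions of UBP6, UBP13 and OTLD1 as points. Dotted lines mark the list medians of 5.06 in air and 2.84 in ethylene; every point lies above its median, and the second UBP13 region in ethylene lies nearest to it.

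UBP26 and OTLD1 encode deubiquitinases known to act on histone H2B. UBP26 (AT3G49600) is known for its part in gene silencing, and OTLD1 (AT2G27350) for repression together with a histone demethylase. OTLD1 had a region in air, at 11704121 to 11704376 on chromosome 2, with an enrichment of 9.87 at rank 311 of 4526. Its −log10 p of 37.5 ranked lower, at 778. Its summit lay 40 bp inside the higher-coordinate gene end, the closest to an end among the 6 regions of these genes. The air pile-up there was 52 over a background of 4.37, where the lowest background solved in the air list is 3.94. The medians of that list are a pile-up of 48 and a background of 8.13.

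No ethylene region lay in the OTLD1 window. Among the 1867 air regions without an overlapping ethylene region, that of OTLD1 had rank 3 by enrichment. The nearest ethylene summit lay 2945 bp outside the gene, next to AT2G27340, and had an enrichment of 3.53. An air summit with an enrichment of 6.54 lay 2937 bp outside, also next to AT2G27340, so the neighbouring region was listed in both treatments and the OTLD1 region in air only. The ethylene list gives no pile-up at the OTLD1 summit, so the size of any difference between treatments cannot be given. In all, 7.99% of genes were listed in air only and 2.66% in ethylene only.

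UBP26 had no summit in either list. The nearest ones lay 5995 bp outside the gene in air and 5996 bp in ethylene, both next to DIN11, with enrichments of 4.16 and 2.45. UBP26 stands close to its neighbours, 47 bp from ATG13 and 27 bp from AT3G49601, so its window also covers the facing ends of both, and these were without a summit too.

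The 6 regions of these genes lay at gene ends. The UBP6 place and the place at the lower-coordinate end of UBP13 are each counted in both air and ethylene. In 5 of the 6 regions the summit lay 40 to 199 bp inside an end, and in the other 57 bp outside. This position was common, since 51.8% of all air summits and 53.4% of all ethylene summits lay up to 200 bp inside an end of their nearest protein-coding gene. No summit lay in the deeper part of a gene or in the rest of the 1000 bp outside it. The nearest summit beyond the window of a listed gene was 2258 bp outside UBP13, in air, with an enrichment of 2.87. All 6 regions lay nearer to their own gene than to any other protein-coding gene. Without strand in the gene table, a transcription start could not be told from a transcription end, so the ends are given by coordinate.

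**Figure D3:**
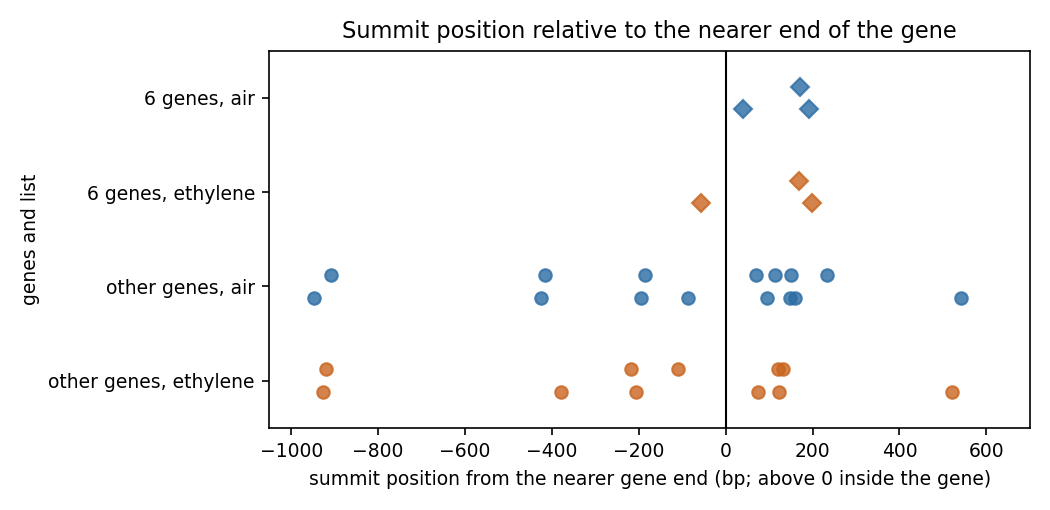
Position in bp of each summit relative to the nearer end of its gene (above 0 is inside), for the 6 genes (diamonds) and for the other deubiquitinase and H2B ubiquitination genes (circles), in air and ethylene. The diamonds lie between 57 bp outside and 199 bp inside, and the circles reach 948 bp outside and 542 bp inside.

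Genes with the most similar pair of ranks were sought over the genes listed in both treatments, by the summed difference of rank percentile of each gene's highest region. Besides AT1G51720, which shares the regions of UBP6, the most similar of 3787 genes to UBP6 was RAD9, with enrichments of 18.1 in air and 5.70 in ethylene. For UBP13, besides ANT1, it was XPB1, with 9.13 and 4.73. Among the 2193 other genes listed in air only, those nearest to OTLD1 by air percentile were AT1G45015 and AT4G08170, with air enrichments of 10.3 and 10.7. This likeness rests on 2 lists and is a description.

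The 6 genes were set beside 40 others. These were the remaining 22 UBP genes, 3 ubiquitin C-terminal hydrolases (UCH) and 2 further OTU loci. Another 6 were deubiquitinases and related isopeptidases of the JAMM metalloprotease class. The last 7 were grouped under H2B ubiquitination, though LDL1 among them encodes a histone demethylase. Of the 40, 15 were listed in air (37.5%, with 21.8% of all genes) and 10 in ethylene (25%, with 16.5% of all genes). The gene lists were chosen with earlier results of these data known, so these shares are a description and were not tested. The 40 had a median length of 3429.5 bp, and their shares were not set against genes of like length. Those in both lists numbered 10 and those in air only 5, where 13.8% of all genes were in both and 7.99% in air only. With −log10 p of at least 20, 5 of the 40 were listed in air (12.5%, with 11.2% of all genes) and 6 in ethylene (15%, with 5.99% of all genes). Of these, the summits of UBP24 and UCH1 in both lists, and of UBP11 and AMSH2 in ethylene, lay nearer to a neighbouring gene. At that threshold 4 were in both lists, AMSH1 in air only, and AMSH2 and UBP11 in ethylene only. Without it AMSH1, AMSH2 and UBP11 were each in both lists. Their regions below the threshold had a −log10 p of 14.3 at AMSH1 in ethylene, and of 18.0 at AMSH2 and 19.7 at UBP11 in air. In 7 of the 15 air regions the summit lay nearer to a neighbouring gene, and with each summit given to its nearest gene the counts were 8 and 5. All-gene shares were then 14.9% and 11.1%.

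**Figure D4:**
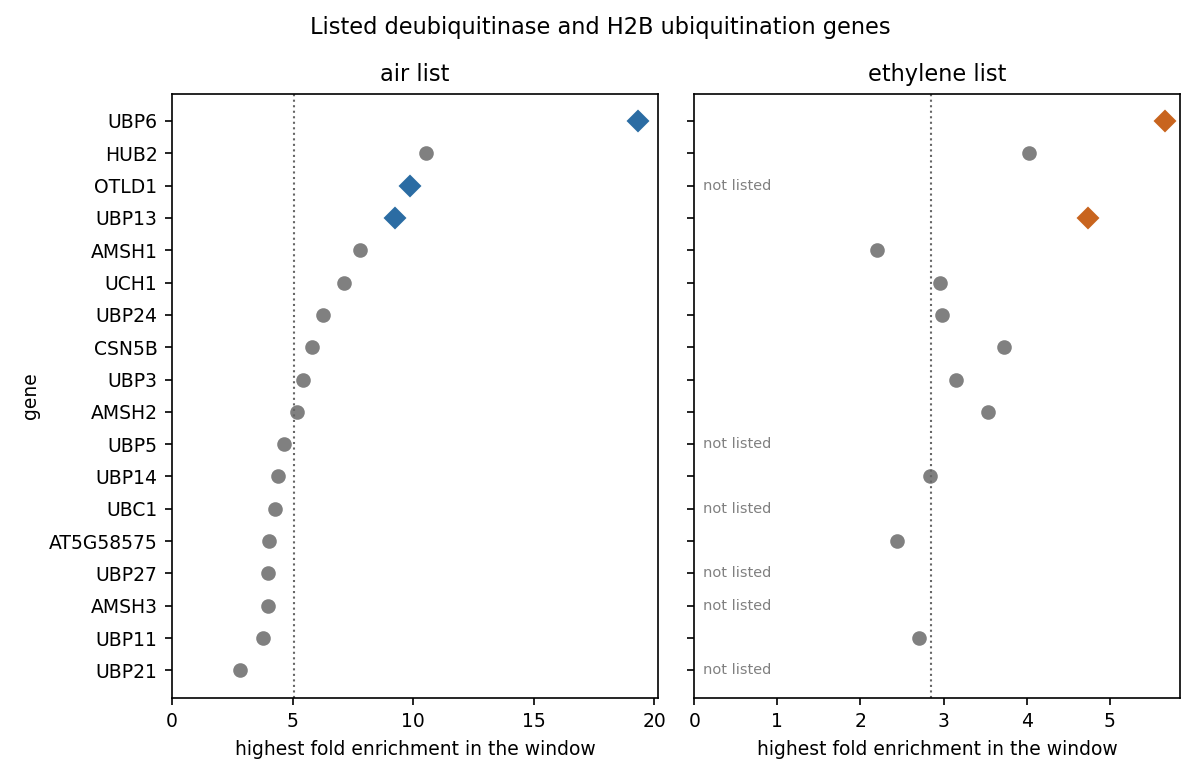
Highest fold enrichment in the window of each deubiquitinase or H2B ubiquitination gene with a region in either list, by treatment, with the 6 genes followed here as coloured diamonds and the others as grey circles. Dotted lines are list medians; UBP6 is highest in both panels and HUB2 is the highest of the others at 10.5 in air and 4.03 in ethylene.

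Among the UBP genes other than the 5 already described, 7 of 22 were listed in air and 4 of 22 in ethylene. Their enrichment stayed below that of UBP13, with a median of 4.40 in air and 2.91 in ethylene. The highest were UBP24, with 6.25 in air and 2.98 in ethylene, and UBP3, with 5.42 and 3.15. At both, the summit lay outside the gene and nearer to a neighbour, AT4G30900 for UBP24 and AT4G39900 for UBP3. UBP14, needed for embryo development, had 4.40 in air and 2.84 in ethylene, with the summits 160 and 133 bp inside the gene. UBP5 and UBP27 were listed in air only, with summits 151 and 147 bp inside. UBP11 was listed in both treatments and UBP21 in air only, with summits 908 and 424 bp outside in air.

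Of the UCH genes, UCH1 was listed, with enrichments of 7.11 in air and 2.96 in ethylene and its summits nearer to FRL1. Of the JAMM genes, CSN5B, a catalytic subunit gene of the COP9 signalosome, had 5.81 and 3.73, with summits 415 and 380 bp outside and nearer to EBS1. AMSH1 had 7.80 in air and 2.20 in ethylene, with summits 96 and 123 bp inside the gene. AMSH2 had 5.16 and 3.54, with these summits nearer to AT1G10590. Another ethylene region of AMSH2 had an enrichment of 2.17 and a −log10 p of 8.88, with its summit 75 bp inside the gene. AMSH3 was listed in air only with 3.96. AMSH proteins are linked to endosomal sorting and autophagy. Neither of the 2 further OTU loci was listed.

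Among the genes linked to H2B ubiquitination, HUB2 (AT1G55250), which encodes a ligase that places ubiquitin on H2B, had the highest enrichment of the 40 genes in both lists. It had 10.5 in air at rank 229 and 4.03 in ethylene at rank 452. The summits were 114 and 120 bp inside the gene and 6 bp apart. HUB1, its partner ligase, was in neither list. UBC1, a ubiquitin-conjugating enzyme gene, was listed in air only with 4.28, and its relative UBC2 was in neither. The locus AT5G58575 had 4.02 in air and 2.44 in ethylene. Of the 7 genes of this list, 2 were thus listed in both treatments, 1 in air only and 4, LDL1 among them, in neither. Of these other genes, UBP4, UBP5, UBP9, UBP10, UBP11, UBP14, UBP21, UBP27, CSN5A, AMSH3, UBC1, UBC2, HUB1 and AT5G58575 were named after their values were seen. So was LDL1.

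In both paralogue pairs among the 6 genes, UBP6 with UBP7 and UBP12 with UBP13, 1 gene was listed and the other was not. Among other related genes, both UBP9 and UBP10 were in neither list. AMSH1 and AMSH2 were both in both lists, and AMSH3 was in air only. UBP3, CSN5B and HUB2 were in both lists, and their relatives UBP4, CSN5A and HUB1 in neither, though the UBP3 and CSN5B summits lay nearer to a neighbour. UBC1 was listed in air only and UBC2 in neither. Such a split was thus not particular to the 2 pairs, and it is given as a description. How often related genes split over all genes was not counted, so nothing is read from it. The labels do not say how reads matching both copies of a pair were treated, and the part of such reads in these differences was not tested.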

How the data were processed

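Of the 8 samples, 4 ChIP samples and their 4 inputs gave 2 deposited lists. Per the submitters' processing notes, the authors aligned reads with BWA to TAIR10 and called regions with MACS2 version 2.1.0.20150603, and per the labels each list serves both ChIP samples of a treatment. What the authors' word optimal for the lists stands for is not given here. The deposited columns hold a fold enrichment ratio, a −log10 p-value, a score (not used here), a −log10 q-value (not used here), and positions in bp, printed counted from 1. Depth per sample is unknown, so no interval is given.

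Gene ends and symbols came from the RefSeq table of TAIR10.1, with all 46 loci of the 5 gene lists found there. Summits were assigned to genes with pandas 2.3.3. An overlap of 1 bp or more made regions of the lists shared. Pile-up and background were solved as the Poisson count and mean that give the deposited ratio and p. In air every region had a solution with a whole pile-up, and only such solutions were kept. In ethylene the solved pile-ups were not whole, and their whole part was used as the count. Where more than 1 kept solution was found for a region, a range is printed. The medians and the lowest background of a list take the solution with the lowest pile-up of each region. Assignment, overlap and the solution were tested on simulated data. The simulated pile-ups were whole numbers, so the solution was not tested for pile-ups like those in ethylene.

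Members and lists were chosen with earlier results of these data known. The naming rule took the 6 genes, the 6 highest others per list, the neighbours nearer to a summit than the gene, and the 2 most similar genes per listed gene. No test was made. Alternatives varied the window, the assignment, the p threshold and the overlap. The planned motif search needs sequence not used here.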

Additional observations from a re-analysis of the deposited data

How the results depend on the processing

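Counts were called the same within 1.5 times the original. Shares of all genes were called the same within the exact 95% binomial interval of the original share. By these rules 31 of 47 alternative values stayed the same. Among them was every count of the 6 genes listed, of their shared regions and of summits 200 bp or less inside a gene end. The 6 genes were chosen by their enrichment in these lists, and their summits lay near gene ends. Most alternatives could thus hardly move these counts, which show little about robustness. As the interval of a share over 27444 genes is narrow, small shifts counted as moved. The share of all genes listed moved with each alternative. From 21.8% in air and 16.5% in ethylene it went to 19% and 14.2% with 500 bp outside the gene ends, to 27.2% and 20.9% with 2000 bp, to 22.3% and 16.9% when any base of a region could lie in the window, to 11.2% and 5.99% with −log10 p of at least 20, and to 14.9% and 11.1% with each summit given to the nearest gene. It was 30% and 22.1% among genes at least as long as UBP7, an alternative chosen after seeing the data. The 15 air and 10 ethylene genes among the 40 others fell to 5 and 6 with −log10 p of at least 20, and to 8 and 5 with the nearest gene only. The first of these keeps fewer regions and the second counts each region for 1 gene. No paired analysis was possible because the deposited values belong to both samples of a group together, which also prevents leaving out a sample.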
